A study of Cicer arietinum with 8 samples.

Results

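Transcript levels of 4 transcription factor genes were examined in chickpea (Cicer arietinum) roots. Ca_17273 and Ca_22917 were assigned to the WRKY family, and Ca_01865 and Ca_15706 to the bZIP family. The members were taken by their identifiers, and each was found as the only identifier of 1 locus, so that 4 of the 30978 loci with deposited values were used. The families are those printed beside the identifiers in the paper's display of differentially abundant TFs, read by eye, and no sequence was used here to check them. That display was limited to TFs past the study's fold threshold in DT(D/C) or DT(C)/DS(C), the comparisons of drought stress with control in the tolerant genotype and of both genotypes under control. In the deposited values, neither bZIP identifier was past a log2 ratio of 1 or -1 there: Ca_01865 had 0.49 in DT(D/C) and -0.67 in DT(C)/DS(C), and Ca_15706 had 0.21 and -0.29. The paper's discussion states that members of both families were up-regulated in DT(C)/DS(C), without naming identifiers. Both WRKY identifiers had ratios above 0 in that comparison, but both bZIP identifiers had ratios below 0, the opposite direction. The bZIP identifiers may therefore have been misread or mislabelled, and their values hold for the identifiers, with the family name in doubt. The study chose the TFs of that display from these same libraries by fold and P-value. The direction and size of the values below, their ranks among all loci and the counts of members past the threshold are therefore not independent evidence.

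Roots of a drought-tolerant genotype, ICC4958 (DT), and of a drought-sensitive one, ICC1882 (DS), gave the RNA. Both were grown in a growth chamber and harvested at 27 days of age, either after 11 days without water that began at 16 days of age (drought stress, D) or with watering on alternate days (control, C). The paper's methods give another age at the onset and another length of the stress. The 4 conditions DT(D), DT(C), DS(D) and DS(C) have 2 libraries each, 8 in all, and the deposited table holds 1 value per locus and condition that pools both libraries. Each genotype is 1 accession, and the conditions were sampled at 1 time point. The values are FPKM, by definition fragment numbers scaled to transcript length and to mapped fragments, with a library normalization that is not given. They carry no spread between libraries, so differences are described here by their size, without a test or an error. The fragments behind a value are unknown. In whole roots, fewer cells of a type and less RNA per cell cannot be told apart. The identifiers are not paired with gene names, so markers of root cell types were not checked.

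WRKY factors are plant regulators that carry the WRKYGQK heptapeptide and a zinc finger, bind the W-box of target promoters, and are best known from defence and abiotic stress responses. In Arabidopsis, some WRKY factors repress and others activate the response to abscisic acid (ABA), the hormone that rises when roots dry. bZIP factors pair through a leucine zipper and bind elements with an ACGT core through a basic region. One group of them, the ABF/AREB factors of Arabidopsis, binds ABA-responsive elements and turns on drought genes, while other groups act in light, sugar and defence signalling. The group to which each chickpea member belongs was not established here.

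Both WRKY transcripts were most abundant in watered roots of the tolerant genotype and were 2.86-fold or more lower in all other conditions. The bZIP transcripts differed less. Ca_01865 was higher under drought stress and in the sensitive genotype, with differences that stayed under 2-fold in each comparison of the deposited values, and Ca_15706 was weakly expressed at nearly the same level everywhere. All 4 genes had an FPKM of at least 1 in all 4 conditions. In the plot of FPKM by condition, DT(C) stands apart for the WRKY genes and not for the bZIP genes.

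**Figure D1:**
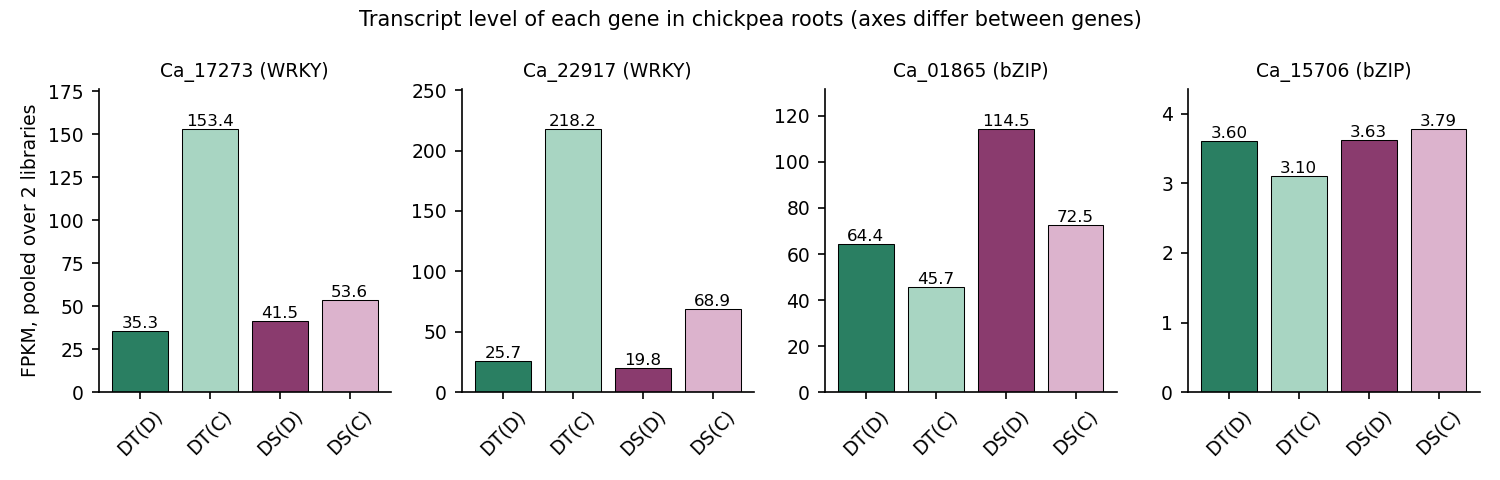
FPKM of each gene (vertical axes, from 0, with a scale of their own for each gene) in DT(D), DT(C), DS(D) and DS(C); each bar is 1 value that pools 2 libraries, so there are no error bars. The WRKY bars peak in DT(C) at 153 and 218 FPKM, Ca_01865 peaks in DS(D) at 114.5 FPKM, and the bars of Ca_15706 lie between 3.10 and 3.79 FPKM.

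Ca_17273 (WRKY) had 35.3 FPKM in DT(D), 153 FPKM in DT(C), 41.5 FPKM in DS(D) and 53.6 FPKM in DS(C). The value of DT(C) stood apart, and the other conditions lay close together. Among the 20745 loci with an FPKM of at least 1 in any condition, 92.4% were below it in DT(C), whereas 73.1% were below it in DT(D), 77.9% in DS(D) and 79.9% in DS(C). The highest value was 4.35 times the lowest, and 88.2% of these loci had a smaller range over the 4 conditions.

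Ca_22917 (WRKY) had 25.7 FPKM in DT(D), 218 FPKM in DT(C), 19.8 FPKM in DS(D) and 68.9 FPKM in DS(C). Both watered conditions were above both droughted ones, in the order DT(C), DS(C), DT(D), DS(D), which 5.11% of the 20745 loci shared. It had the widest range of the members, with the highest value 11.0 times the lowest, and 94.8% of these loci had a smaller range. Whether neighbours in this order differ beyond the spread between libraries cannot be said from pooled values.

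Ca_01865 (bZIP) had 64.4 FPKM in DT(D), 45.7 FPKM in DT(C), 114.5 FPKM in DS(D) and 72.5 FPKM in DS(C). The sensitive genotype was above the tolerant one in each water regime, and drought stress was above control in each genotype. This order, DS(D), DS(C), DT(D), DT(C), was shared by 2.58% of the 20745 loci. The highest value was 2.51 times the lowest.

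Ca_15706 (bZIP) had 3.60 FPKM in DT(D), 3.10 FPKM in DT(C), 3.63 FPKM in DS(D) and 3.79 FPKM in DS(C). Its highest value was 1.22 times the lowest, and 8.22% of the 20745 loci had a smaller range. Between 18.2% and 24.4% of these loci were below it in each condition. It was thus a transcript of low abundance, and its 4 values were nearly level.

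Summed over both WRKY members, the FPKM came to 61.0 in DT(D) and 372 in DT(C), and to 61.3 in DS(D) and 123 in DS(C). As deposited, the WRKY sums of the droughted roots were therefore almost equal in the 2 genotypes, while those of the watered roots were not. Within the droughted sums, Ca_17273 was lower and Ca_22917 higher in DT(D) than in DS(D). The columns also differ in scale, with a summed FPKM over all loci of 1352243 in DT(D) and 1204308 in DS(D). The balance of the pair also differed with the water regime: Ca_17273 had 1.37 times the FPKM of Ca_22917 in DT(D) and 0.703 times in DT(C), and 2.09 times in DS(D) and 0.777 times in DS(C). Ca_22917 was thus the more abundant of the pair in both watered conditions and the less abundant in both droughted ones. For the bZIP members, Ca_01865 had between 14.7 and 31.6 times the FPKM of Ca_15706, so the family sums followed Ca_01865.

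The response of each genotype to withheld water was asked with DS(D/C) and DT(D/C), the log2 ratios of drought stress over control. No pseudocount was added, and a locus entered where either condition reached an FPKM of 1. Loci at 1 or more were counted as higher and those at -1 or less as lower, which is the fold threshold of the study's methods without its P-value. In DT(D/C), both WRKY members were past it on the lower side and no member was past it on the higher side. Of all 20326 loci that entered, 8.88% were counted as lower and 5.03% as higher. In DS(D/C), 1 of the 4 members, Ca_22917, was lower and none was higher, beside 8.66% lower and 8.21% higher among 20093 loci.

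Ca_22917 showed the largest difference of the members in both genotypes. It was 8.48-fold lower in DT(D) than in DT(C), a log2 ratio of -3.08, and only 331 loci had a lower ratio. In the sensitive genotype, DS(D) was 3.47-fold below DS(C), a log2 ratio of -1.80, with 652 loci lower still. Ca_17273 was 4.35-fold lower in DT(D) than in DT(C) (log2 ratio -2.12, with 702 loci lower still). In DS its log2 ratio was -0.37, within the threshold, and with columns brought to the same summed FPKM this ratio was 0.10.

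The bZIP members stayed within the threshold in both genotypes. Ca_01865 had 1.41 times as much transcript in DT(D) as in DT(C) and 1.58 times as much in DS(D) as in DS(C), log2 ratios of 0.49 and 0.66. A similar share of loci lay below it in each genotype, 84.9% in DT and 84.4% in DS. With columns brought to the same summed FPKM, its ratio in DS(D/C) was 1.12, past the threshold. Ca_15706 had log2 ratios of 0.21 in DT and -0.062 in DS. The median ratio over the 4 members was -0.95 in DT and -0.22 in DS, beside medians over all loci of 0.02 and -0.01. In DT, 2 members were above 0 and 2 below, and in DS 1 was above 0 and 3 below. These medians therefore do not describe a direction that the members share.

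**Figure D2:**
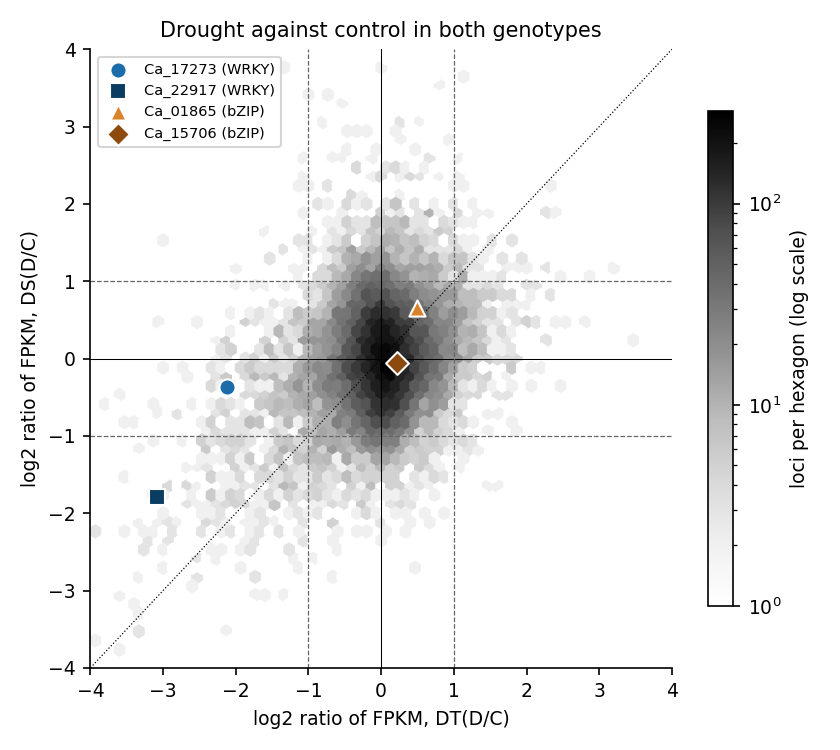
log2 ratio of FPKM in DT(D/C) (horizontal axis) against that in DS(D/C) (vertical axis) for 19371 loci with both ratios inside the axes (grey hexagons, shaded by number of loci on a log scale; 158 loci lie outside) and for the 4 genes (coloured symbols). Dashed lines mark log2 ratios of 1 and -1 and the dotted line marks equal ratios; both WRKY genes lie above the dotted line, with ratios of -2.12 and -3.08 in DT(D/C) against -0.37 and -1.80 in DS(D/C), whereas both bZIP genes lie near it.

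The drought ratios of the genotypes were also subtracted, DT(D/C) minus DS(D/C), over the 19529 loci with both ratios. The difference was -1.75 for Ca_17273, and 3.90% of the loci had a lower one. It was -1.29 for Ca_22917, with 7.29% of the loci lower. In the deposited values, both WRKY genes were thus lower under drought stress by a larger factor in the tolerant genotype. The same difference is obtained from DT(D)/DS(D) minus DT(C)/DS(C), so the high DT(C) values enter it too and it is not a separate result. The bZIP genes had differences of -0.16 (Ca_01865) and 0.28 (Ca_15706), and the median over all loci was 0.02. None of these differences could be tested on pooled values.

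The genotypes were compared under control conditions, DT(C)/DS(C), and under drought stress, DT(D)/DS(D). In watered roots, both WRKY members were higher in DT, and no member was counted as lower. Of 20231 loci, 11.1% were counted as higher and 5.17% as lower. Ca_17273 was 2.86-fold and Ca_22917 3.17-fold higher in DT(C) than in DS(C), log2 ratios of 1.52 and 1.66. Of the loci that entered, 1058 had a higher ratio than Ca_17273 and 894 a higher one than Ca_22917. These ratios share the DT(C) values with DT(D/C), so that a high value in DT(C) enters both.

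In droughted roots, no member was past the threshold between the genotypes, beside 6.73% higher and 5.09% lower among 20310 loci. The WRKY members had log2 ratios of -0.23 (Ca_17273) and 0.38 (Ca_22917) in DT(D)/DS(D). The genotype difference of the WRKY genes in watered roots was therefore not present at that size in droughted roots, where 1 gene was slightly below and the other slightly above DS. Ca_01865 kept the lower value in DT, with a log2 ratio of -0.67 in DT(C)/DS(C) and of -0.83 in DT(D)/DS(D), that is 1.59- and 1.78-fold higher in DS. In DT(D)/DS(D), 6.62% of the loci had a lower ratio than Ca_01865. Ca_15706 had ratios of -0.29 and -0.011. The median ratio of the 4 members was 0.62 in DT(C)/DS(C) and -0.12 in DT(D)/DS(D), beside 0.09 and 0.10 over all loci. The members were split here too, with 2 above 0 and 2 below in DT(C)/DS(C) and 1 above 0 and 3 below in DT(D)/DS(D).

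**Figure D3:**
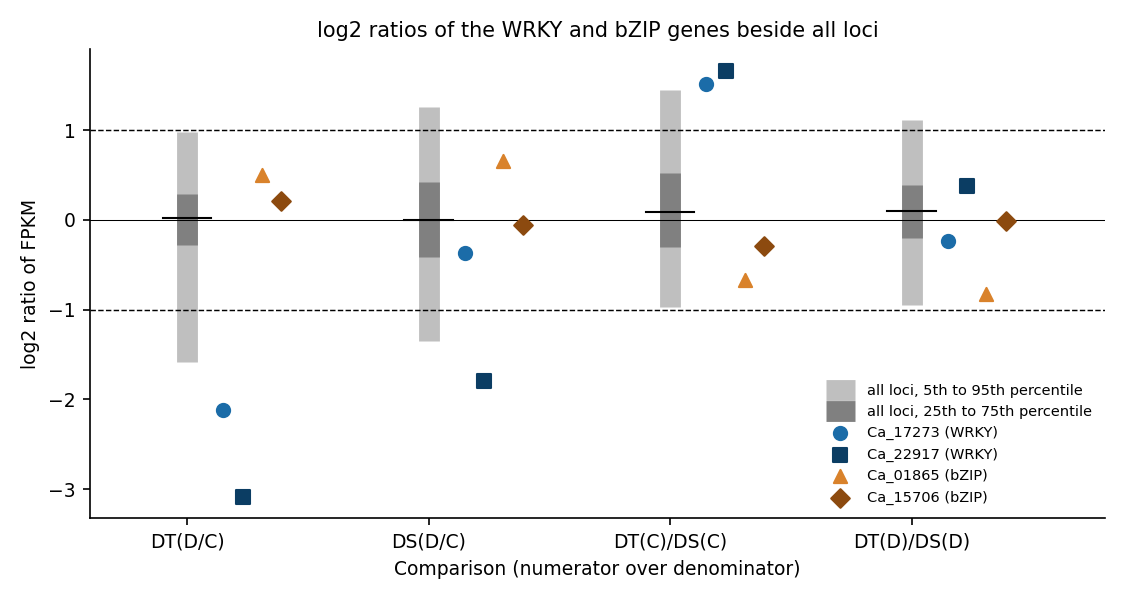
log2 ratio of FPKM (vertical axis) in each of the 4 comparisons for the 4 genes (coloured symbols), beside the 5th to 95th (light bar) and 25th to 75th percentile (dark bar) and the median (black line) of all loci with a finite ratio; dashed lines mark 1 and -1. The WRKY genes lie below the bars in DT(D/C) and above them in DT(C)/DS(C), and all 4 genes lie between -1 and 1 in DT(D)/DS(D).

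The FPKM columns differ in scale. Their sums ranged from 1204308 in DS(D) to 1662837 in DS(C), and bringing them to the same sum shifted the median ratio of all loci by 0.47 in DS(D/C), 0.27 in DT(C)/DS(C), -0.17 in DT(D)/DS(D) and 0.03 in DT(D/C). In both comparisons that involve DS(C), the ratios also varied with expression level. When the loci were split by mean log2(FPKM + 1) into 10 groups, weakly to strongly expressed, the outermost groups had median ratios of 0.53 and -0.50 in DS(D/C). For DT(C)/DS(C) they had medians of 0.55 and -0.32. The group that holds both WRKY genes and Ca_01865 had a median ratio of -0.22 in DS(D/C), and that of Ca_15706 had one of 0.21. Relative to these medians, the ratios in DS(D/C) were -0.15 for Ca_17273, -1.58 for Ca_22917, 0.88 for Ca_01865 and -0.27 for Ca_15706. In DT(C)/DS(C), the medians of the same groups were -0.10 and 0.28, and the ratios relative to them were 1.62 for Ca_17273, 1.76 for Ca_22917, -0.57 for Ca_01865 and -0.57 for Ca_15706, whose ratio as deposited was -0.29. The part of scale in these values was not tested beyond these alternatives. In DT(D/C), the WRKY ratios remained between -2.17 and -2.07 for Ca_17273 and between -3.14 and -3.03 for Ca_22917 as deposited and over the 6 alternative settings. The DT(D) and DT(C) columns were close in scale, with summed FPKM of 1352243 and 1378432, so rescaling could move these ratios only slightly. The narrow ranges therefore do not measure how stable the ratios are between libraries.

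**Figure D4:**
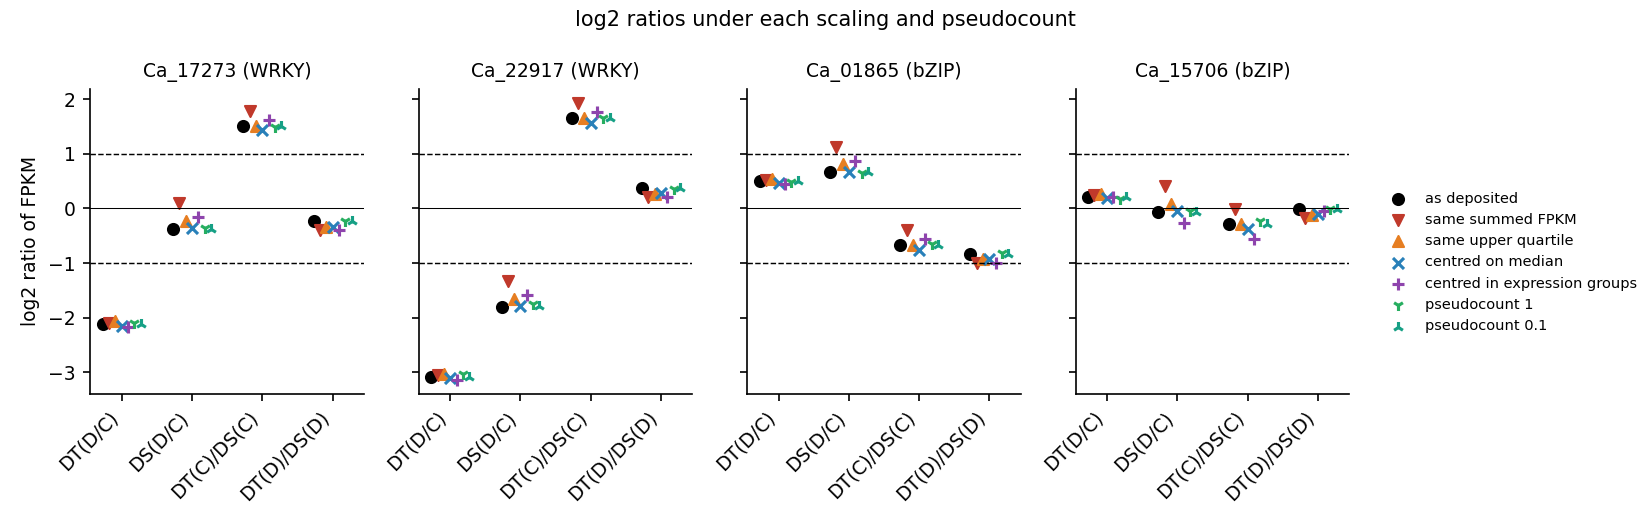
log2 ratio of FPKM (vertical axis) of each gene in the 4 comparisons (horizontal axis), as deposited and under 6 alternative scalings, centrings and pseudocounts (symbols); dashed lines mark 1 and -1. The symbols of the WRKY genes stay below -2 in DT(D/C) and above 1 in DT(C)/DS(C), and the symbol of Ca_01865 in DS(D/C) reaches 1.12 with the same summed FPKM.

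The members were also set against each other by profile, the 4 values of log2(FPKM + 1) of a gene centred on their mean. The distance between 2 profiles (Euclidean) was 1.24 for the WRKY pair and 0.83 for the bZIP pair. Between a WRKY and a bZIP gene it lay between 1.78 and 3.48. Each gene was thus nearest to the member with the same family name. The WRKY genes came from a display chosen in these libraries, and the bZIP family names are in doubt. The distances therefore do not show a likeness by family. Each distance rests on 4 values and the families on 1 pair each.

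Among 17119 other expressed loci with a single identifier, those with the profile most like each member were looked up. For Ca_22917, this was Ca_04052, with 41.6 FPKM in DT(D), 393 in DT(C), 33.7 in DS(D) and 115 in DS(C), at a distance of 0.13. For Ca_17273, it was Ca_01899, with 16.3 FPKM in DT(D), 74.6 in DT(C), 18.9 in DS(D) and 22.2 in DS(C), at a distance of 0.15. By the largest absolute difference instead, Ca_01899 ranked at place 3. Within a distance of 0.5 lay 25 loci for Ca_22917 and 89 for Ca_17273. The profiles were centred and not scaled, so a gene with a wide range tends to have fewer loci within that distance. These numbers thus do not show that a peak in DT(C) is rare. The order of Ca_17273, DT(C), DS(C), DS(D), DT(D), was shared by 3.64% of the 20745 loci.

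For Ca_01865, the most similar profile was that of Ca_02593, with 170 FPKM in DT(D), 127 in DT(C), 315 in DS(D) and 202 in DS(C), at a distance of 0.07. Within a distance of 0.5 of Ca_01865 lay 290 loci. For Ca_15706, it was Ca_08224, with 23.2 FPKM in DT(D), 20.8 in DT(C), 23.4 in DS(D) and 24.5 in DS(C), at a distance of 0.02. This flat profile was common, with 7918 loci within 0.5. It does not single out Ca_08224, which fell to place 13 with a pseudocount of 0.1. The files give no names for these genes.

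As a further set of regulators, the 12 TF genes of the drought QTL-hotspot that the paper's text names were counted. They belong to other families, among them MADS-box, AP2-EREBP, HSF, MYB and Trihelix. In DT(D/C), 1 of the 12 was higher and 3 were lower, beside 5.03% and 8.88% of all loci, with ratios from -4.31 to 1.19 and a median of -0.17. In DS(D/C), 0 were higher and 3 were lower, beside 8.21% and 8.66% of all loci, with a median of 0.21. In DT(C)/DS(C), 3 were higher and 1 was lower, beside 11.1% and 5.17% of all loci, with a median of 0.30. In DT(D)/DS(D), 11 of the 12 entered, of which 1 was higher and 0 were lower, beside 6.73% and 5.09% of all loci, with a median of 0.066. The paper names these 12 as co-expressed genes, from modules built on these same data after a filter on variance. They are thus a selected list, and their counts beside all loci are not independent evidence. With so few genes these counts are a description, and no difference between this list and the WRKY and bZIP genes was tested.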

How the data were processed

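After read filtering with NGS QC Toolkit and mapping by TopHat2 2.1.1 to the kabuli genome, the authors assembled transcripts with Cufflinks 2.2.1 and Cuffmerge, and deposited FPKM values, 1 per merged locus and condition, pooled over 2 libraries. Differential expression was tested by the authors with Cuffdiff 2.2.1, and the values used here carry no P-values. The library normalization is not given in the sources used here. Pooled values give no SD, n or test, and their depth is unknown. The columns were assigned to DT(D), DT(C), DS(D) and DS(C) by their names.

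The members and lists were chosen with earlier results of these data known. The members and, for each, the 1 locus with the nearest profile are named. Log2 ratios were computed without a pseudocount at a minimum FPKM of 1 and a threshold of 1. Percentages of loci are descriptions. Alternatives were pseudocounts of 1 and 0.1, columns rescaled to the same sum or upper quartile, centring on the median or within 10 expression groups, a threshold of 2, other filters and known loci only. None of the 28269 identifiers matched the RefSeq gene table, so no names, coordinates or sequences are given. Python 3.11.15, numpy 2.4.6, pandas 2.3.3 and matplotlib 3.10.9 were used, tested on simulated data.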

Additional observations from a re-analysis of the deposited data

Results flagged for a closer look

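The drought ratios of Ca_15706 (bZIP) had opposite directions in the 2 genotypes, with log2 ratios of 0.21 in DT and -0.062 in DS. Each is 1 pooled value, both lie within the threshold, and the difference was not tested. With columns brought to the same summed FPKM, the ratios were 0.24 and 0.40, and with the same upper quartile 0.27 and 0.087, in the same direction. With centring within expression groups they were 0.21 and -0.27, in opposite directions.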

How the results depend on the processing

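Each of the 16 member ratios was computed under 6 alternatives, which gave 96 values. Of these, 93 kept their sign and 95 their side of the threshold, and 65 lay within 0.1 of the main value. At each of the 2 pseudocounts, all 16 ratios lay within 0.1. The alternatives change scale and pseudocount only, and none reflects the unknown spread between libraries. These counts therefore do not show that a ratio would repeat. The 3 changes of sign were those of Ca_17273 in DS(D/C) at the same summed FPKM (-0.37 to 0.10) and of Ca_15706 in DS(D/C) at the same summed FPKM (-0.062 to 0.40) and the same upper quartile (0.087). Rescaling the columns adds the same constant to all ratios of a comparison, so these changes of sign follow from the rescaling itself. Why the columns differ in scale was not tested. The change of call was that of Ca_01865 in DS(D/C), 1.12 at the same summed FPKM, which made 2 members past the threshold there. At that setting 20.5% of all loci were counted as higher and 4.57% as lower in DS(D/C), against 8.21% and 8.66% as deposited.

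The median ratio of the members at the same summed FPKM was 0.25 in DS(D/C), 0.89 in DT(C)/DS(C) and -0.29 in DT(D)/DS(D). At the same upper quartile it was -0.067 in DS(D/C) and -0.22 in DT(D)/DS(D), where centring within expression groups also gave -0.22. At a threshold of 2, the members past it numbered 0 in DS(D/C) and 0 in DT(C)/DS(C), while both WRKY genes stayed past it in DT(D/C). Of all loci, DT(D/C) then had 1.21% on the higher side with 3.84% on the lower, DS(D/C) 2.15% with 2.61%, and DT(C)/DS(C) 3.13% with 1.54%.

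The counts of all loci moved by more than 1.5 times under some of 10 alternatives. In DT(D/C), 1023 loci were higher (246 to 2019) and 1804 lower (780 to 2588). In DS(D/C), 1650 were higher (432 to 4134) and 1741 lower (524 to 2418). In DT(C)/DS(C), 2244 were higher (634 to 3554) and 1045 lower (311 to 1693). In DT(D)/DS(D), 1367 were higher (373 to 2459) and 1033 lower (376 to 1869). The share of higher among counted loci at the same summed FPKM was 81.8% in DS(D/C) against 48.7% as deposited, 84.3% in DT(C)/DS(C) against 68.2%, and 43.4% in DT(D)/DS(D) against 57.0%. At the same upper quartile it was 61.4% in DS(D/C), and with centring within expression groups 53.7% in DT(C)/DS(C).

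No paired analysis was possible because the columns pool both libraries of a condition and carry no replicate number. Leaving out a library was not possible for the same reason.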
